A study of Mus musculus with 6 samples.

Results

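A group of 7 genes of cholesterol synthesis, sterol transport and their control was described in mouse embryonic stem (ES) cells after deletion of a cohesin gene. The genes were Srebf2, Insig1, Hmgcs1, Idi1, Sqle, Dhcr7 and Stard4, taken by gene symbol for their role in the sterol pathway, and they are 7 of 19938 genes measured and hold 8 of 35556 probe sets. RNA came from 3 cultures labelled Scc1 lox/lox ERT2-Cre and 3 labelled Scc1 wt/wt ERT2-Cre, 1 Affymetrix Mouse Gene 1.0 ST array each. All 6 were female ES cells of a mixed C57BL/129 background, derived and kept with 2i and LIF in N2B27, a serum-free medium, and all received 4-hydroxytamoxifen (4-OHT) for 24 h, at 80 nM in the sample labels and with the unit mM in the design text. Scc1 is Rad21, the closing subunit of the cohesin ring. ERT2-Cre moves to the nucleus with 4-OHT and cuts out DNA between lox sites, and both genotypes carried it and received 4-OHT, while only lox/lox cells had lox sites in Scc1. No culture without 4-OHT was analysed here, and the labels do not say how many clones each genotype stands for, so loss of Rad21 and any older difference between the lines cannot be told apart.

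Mammalian cells make cholesterol from acetyl-CoA through mevalonate, isoprenoid diphosphates, squalene and lanosterol. The pathway is switched on by SREBP-2, a membrane-bound transcription factor of the endoplasmic reticulum. When sterols are scarce it travels to the Golgi with its escort Scap and is cut free, and when sterols are plentiful Insig proteins hold it back. Its targets take in nearly every enzyme of the pathway and its own brake, Insig1, which is why these genes usually move together when a cell's sterol supply changes.

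SREBP acts through sites near the start of its target genes, often beside sites for NF-Y and Sp1, so the promoters of the members show where such sites may lie. RefSeq promoters (build GRCm38.p6, 250 bases before to 50 after a start site, all on the plus strand) were matched by symbol for 5 of the 7 members and are printed 5′ to 3′, with capitals on every match to a sterol regulatory element (TCACNCCAC), an E-box (CACGTG), an NF-Y box (CCAAT) or an Sp1 box (GGGCGG) on either strand. The Hmgcs1 window is chr13:119690101-119690400, that of Insig1 chr5:28071162-28071461, that of Srebf2 chr15:82147019-82147318 and that of Idi1 chr13:8885356-8885655. RefSeq lists 3 start sites for Dhcr7, and the windows shown are those of the first (chr7:143822917-143823216) and the last (chr7:143829964-143830263).
Hmgcs1: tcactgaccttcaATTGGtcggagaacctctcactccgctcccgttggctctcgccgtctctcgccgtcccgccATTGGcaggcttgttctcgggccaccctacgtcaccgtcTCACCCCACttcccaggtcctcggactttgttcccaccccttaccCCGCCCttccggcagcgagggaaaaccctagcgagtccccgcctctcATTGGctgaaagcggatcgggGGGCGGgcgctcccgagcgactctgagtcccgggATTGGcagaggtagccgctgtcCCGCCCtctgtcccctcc
Insig1: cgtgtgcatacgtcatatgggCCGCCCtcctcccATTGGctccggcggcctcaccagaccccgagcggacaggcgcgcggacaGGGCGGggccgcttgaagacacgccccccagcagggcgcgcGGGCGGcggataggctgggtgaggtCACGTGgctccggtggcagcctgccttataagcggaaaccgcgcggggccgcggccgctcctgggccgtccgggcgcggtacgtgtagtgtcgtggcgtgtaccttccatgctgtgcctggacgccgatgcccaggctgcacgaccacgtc
Srebf2: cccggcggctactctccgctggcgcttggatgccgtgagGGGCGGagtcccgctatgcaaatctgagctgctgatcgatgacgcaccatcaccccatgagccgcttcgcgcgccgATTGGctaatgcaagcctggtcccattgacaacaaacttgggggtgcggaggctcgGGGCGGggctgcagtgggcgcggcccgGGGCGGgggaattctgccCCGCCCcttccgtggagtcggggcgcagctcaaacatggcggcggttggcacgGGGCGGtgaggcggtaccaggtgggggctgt
Idi1: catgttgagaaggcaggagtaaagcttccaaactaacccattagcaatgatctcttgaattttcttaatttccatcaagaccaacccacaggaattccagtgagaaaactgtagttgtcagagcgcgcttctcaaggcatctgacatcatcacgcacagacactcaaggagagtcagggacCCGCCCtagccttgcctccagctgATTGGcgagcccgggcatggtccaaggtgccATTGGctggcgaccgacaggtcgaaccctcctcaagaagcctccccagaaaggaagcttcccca
Dhcr7, first start: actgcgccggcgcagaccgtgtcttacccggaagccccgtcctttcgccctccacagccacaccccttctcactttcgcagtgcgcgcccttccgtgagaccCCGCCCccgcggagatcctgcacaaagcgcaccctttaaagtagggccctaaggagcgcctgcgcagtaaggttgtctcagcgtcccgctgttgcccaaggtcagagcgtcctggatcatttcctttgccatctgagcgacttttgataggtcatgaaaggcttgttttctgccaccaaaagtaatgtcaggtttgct
Dhcr7, last start: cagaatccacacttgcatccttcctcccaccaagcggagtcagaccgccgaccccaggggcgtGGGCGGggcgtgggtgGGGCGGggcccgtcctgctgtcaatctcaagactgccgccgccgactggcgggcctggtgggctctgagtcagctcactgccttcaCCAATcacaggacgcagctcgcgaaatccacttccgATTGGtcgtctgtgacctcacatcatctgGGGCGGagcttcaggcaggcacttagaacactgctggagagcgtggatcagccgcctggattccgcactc

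Sqle and Stard4 had no promoter entry and were not searched. Among the 5 members searched, the sterol element was found in Hmgcs1, beginning at position -137 from its start, beside 4 NF-Y and 3 Sp1 boxes. The element in these exact letters was found in 1.24% of the 32851 mouse promoters of the same length. Insig1 had an E-box at position -101, a motif in 7.15% of promoters. NF-Y boxes, present in 37.4% of promoters, were in the windows of Hmgcs1, Insig1, Srebf2 and Idi1 and in the last Dhcr7 window, where there were 2. Sp1 boxes, present in 35.7%, were in each of the 6 windows printed, and the second Dhcr7 window, not printed, held 1 E-box. The motifs were matched letter by letter, do not overlap one another in these windows, and say nothing of binding in these cells.

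The arrays carried the genotypes as labelled. Rad21 stood at 6.09 ± 0.04 in lox/lox cells and at 10.02 ± 0.03 in wt/wt cells (log2 intensity, mean ± SD, n = 3), a level 15.2-fold lower. Medians of the 6 arrays lay between 4.85 and 4.94 and pairwise correlations between 0.9892 and 0.9947. Within genotypes, lox/lox replicate 3 and wt/wt replicate 2 stood apart on the first component of the deviations (loadings -0.537 and -0.576). The other arrays lay on its opposite side, from 0.101 to 0.475. The value of wt/wt replicate 1, 0.475, was nearly as far from 0. All 10 ES cell markers lay above the array median, at levels from 7.56 to 13.29. Their summed log2 level was 101.2 to 102.4 in lox/lox cells, against 104.9 to 105.8 in wt/wt cells, with 5 of 10 lower and 1 higher by the test used throughout (limma, adjusted p under 0.05 over all genes), a shift whose part in the sterol results was not tested. The summed levels of 10 fibroblast markers (45.5 to 47.1 in lox/lox, 44.8 to 47.3 in wt/wt cells), 8 of primitive endoderm (35.6 to 36.8, against 34.7 to 37.2) and 6 of neural cells (33.6 to 34.0, against 32.2 to 33.6) gave 0 calls in limma, with 1, 0 and 2 genes at an unadjusted p under 0.05. Of the fibroblast markers, which would show feeder cells, 4 of 10 lay above the array median, at levels from 2.89 to 6.46 over the list. In bulk RNA, fewer cells that express a gene and less RNA per cell cannot be told apart.

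In lox/lox cells the sterol genes had changes that were small, though larger than the median over all genes, dim ones included, and without a common direction. Of the 7 genes, Dhcr7 was higher in lox/lox cells, Stard4 was lower and the other 5 did not pass, so 28.6% were called where 6.16% of all genes were (2.55% higher and 3.61% lower). The genotypes differed by less than 1.5-fold in each of the 7. The median absolute log2 change was 0.19 for the 7 and 0.09 over all genes. Their median log2 change, lox/lox minus wt/wt, was -0.14, beside -0.0079 over all genes, with 5 below 0 and 2 above. The arrays of the genotypes did not overlap for 4 of the 7, Dhcr7, Stard4, Sqle and Insig1, a separation seen in 22.8% of all genes.

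**Figure D1:**
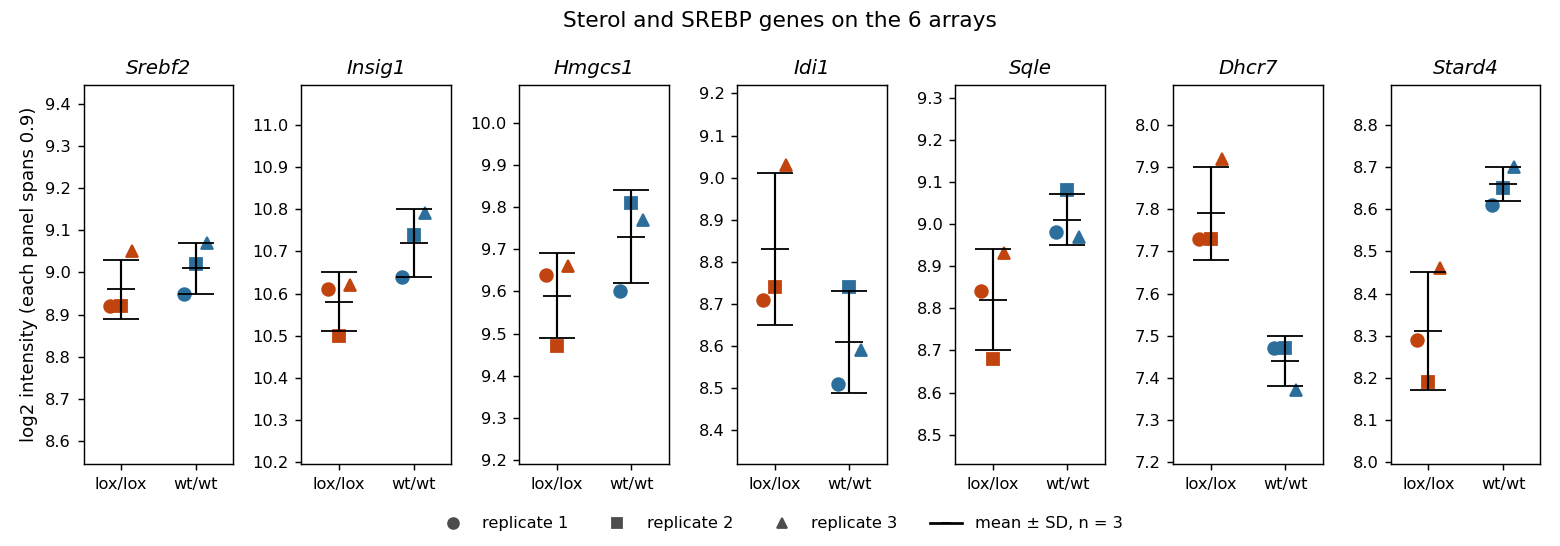
Log2 intensity of each gene (one panel each, all spanning the same range of 0.9) on the 3 lox/lox arrays (left, orange) and the 3 wt/wt arrays (right, blue), with symbols for the replicate number and bars for the mean ± SD. The Dhcr7 points of lox/lox cells (7.73 to 7.92) lie above those of wt/wt cells (7.37 to 7.47), the Stard4 points lie below (8.19 to 8.46, against 8.61 to 8.70), and those of Srebf2, Hmgcs1 and Idi1 overlap.

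Neither regulator passed the test. Srebf2, which encodes SREBP-2, had log2 intensities of 8.92, 8.92 and 9.05 in lox/lox replicates 1 to 3, against 8.95, 9.02 and 9.07 in wt/wt replicates 1 to 3. The groups overlap over most of their range. Its log2 change was -0.049 (SE 0.08, 95% interval -0.22 to 0.12, adjusted p = 0.832 in limma), the smallest of the 7. A further probe set that the platform assigns to Srebf2 and 3 other genes cannot be credited to it and was not used in the fit.

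Insig1, the sterol-sensing brake on SREBP and one of its own targets, read 10.61, 10.50 and 10.62 in lox/lox cells, against 10.64, 10.74 and 10.79 in wt/wt cells. The highest lox/lox array was just under the lowest wt/wt array. The log2 change of -0.14 (SE 0.08, interval -0.32 to 0.033) did not pass (adjusted p = 0.403 in limma).

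Hmgcs1, the cytosolic HMG-CoA synthase that opens the mevalonate route, had 9.64, 9.47 and 9.66 in lox/lox cells, against 9.60, 9.81 and 9.77 in wt/wt cells. The lowest wt/wt array lay inside the lox/lox range. The log2 change was -0.14 (SE 0.09, interval -0.34 to 0.061, adjusted p = 0.493 in limma). Among the members searched, this is the one whose promoter window, printed above, holds the sterol element in the exact letters used. Looser forms of the element were not searched.

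Idi1, the isomerase that makes the allylic isoprenoid unit, was measured by a pair of probe sets. The brighter one, used in the fit, gave 8.71, 8.74 and 9.03 in lox/lox cells, against 8.51, 8.74 and 8.59 in wt/wt cells. The middle lox/lox array and the highest wt/wt array were level. Its log2 change was 0.21 (SE 0.10, interval -0.018 to 0.44, adjusted p = 0.326 in limma). The other probe set read 8.60, 8.64 and 8.88 in lox/lox cells, against 8.36, 8.48 and 8.50 in wt/wt cells, with no overlap and the same direction. In the fit over all probe sets its log2 change was 0.26 (adjusted p = 0.29 in limma), so neither probe set passed.

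Sqle, squalene epoxidase, catalyses the first oxygen-dependent step of the sterol branch. It read 8.84, 8.68 and 8.93 in lox/lox cells, against 8.98, 9.08 and 8.97 in wt/wt cells. All lox/lox arrays were below all wt/wt arrays, by a narrow margin at the nearest pair. The log2 change was -0.19 (SE 0.09, interval -0.39 to -0.0023) and did not pass (unadjusted p = 0.0477, adjusted p = 0.272 in limma). Among measured genes in chromosomal order, Sqle lies on chromosome 15 between Rad21, 39 genes away, and Myc, 8 genes away. Of its 10 nearest measured neighbours (5 on each side) 0 were called in limma, where 6.16% of all genes were. Myc itself was 2.16-fold higher in lox/lox cells (7.64 ± 0.17, against 6.53 ± 0.22, n = 3, adjusted p = 0.000633 in limma). Srebf2 is on the same chromosome, 286 measured genes from Rad21.

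Dhcr7, which reduces 7-dehydrocholesterol to cholesterol in the last step of one branch, was the member that rose. Its arrays gave 7.73, 7.73 and 7.92 in lox/lox cells, against 7.47, 7.47 and 7.37 in wt/wt cells. The gap between the groups was wider than the range within either. The level was 1.28-fold higher (log2 change 0.36, SE 0.08, interval 0.17 to 0.54, adjusted p = 0.0311 in limma). The call was lost in each of the 6 fits that left out 1 array, with adjusted p from 0.0531 (wt/wt replicate 1 left out) to 0.134 (wt/wt replicate 3 left out), while the log2 change stayed between 0.30 and 0.39. It was also lost after median centring (0.0566) and with all probe sets tested (0.0896).

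Stard4, a small soluble carrier that moves cholesterol between membranes and is itself an SREBP-2 target, was the member that fell. It read 8.29, 8.19 and 8.46 in lox/lox cells, against 8.61, 8.65 and 8.70 in wt/wt cells. The lox/lox arrays spread more widely (SD 0.14, against 0.04) but stayed below every wt/wt array. The level was 1.27-fold lower (log2 change -0.34, SE 0.09, interval -0.54 to -0.15, adjusted p = 0.0456 in limma). The call held in the fit without lox/lox replicate 3 (adjusted p = 0.0256) and was lost in the other 5, without lox/lox replicate 1 (0.132) or 2 (0.187) or wt/wt replicate 1 (0.071), 2 (0.105) or 3 (0.164). It was also lost after median centring (0.05 after rounding) and with all probe sets tested (0.122). Its neighbour Epb41l4a, named after its value was seen, was also lower (log2 change -0.41, adjusted p = 0.00899 in limma) and was the 1 of 10 nearest measured genes that was called. Hmgcs1 likewise had 1 called neighbour, the higher clone-named AF067061, and the other 5 members had none. With 6.16% of all genes called, 0 or 1 of 10 neighbours sets no member apart.

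**Figure D2:**
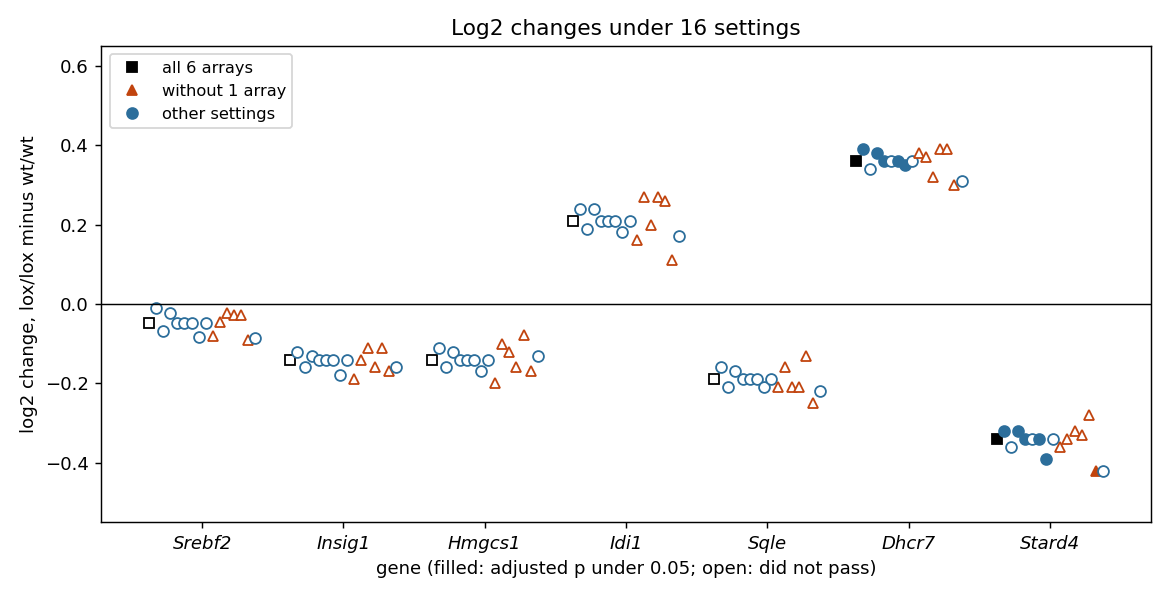
Log2 change, lox/lox minus wt/wt, of each gene (x axis) with all 6 arrays (black square), without 1 array (orange triangles) and under other settings (blue circles), filled where the adjusted p was under 0.05. Every gene keeps its sign. Filled symbols occur for Dhcr7 and Stard4 alone, and for Dhcr7 every triangle is open.

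The replicates of the 7 genes were ordered alike. Among the lox/lox arrays, replicate 3 gave the highest value for 7 of 7 genes, where it did so for 40.3% of all genes, and replicate 2 gave the lowest for 5 of 7 (34.7% of all genes). Among the wt/wt arrays replicate 1 was lowest for 5 of 7 (29.5% of all genes). This order was not particular to the 7. The lox/lox replicate 3 was also highest for 64.3% of the other sterol synthesis genes, 77.8% of the fatty acid genes described below and 80% of the ES cell markers. It was so for 44.4% of the export genes described below and 10% of the fibroblast markers. The wt/wt replicate 1 was lowest for 57.1%, 72.2%, 70%, 11.1% and 0% of these lists, in the same sequence. Replicate 3 of lox/lox is one of the arrays that stood apart, and without it and wt/wt replicate 2, an alternative added after seeing the data, Dhcr7 had a log2 change of 0.31 (adjusted p = 0.116 in limma) and Stard4 one of -0.42 (adjusted p = 0.0527).

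Across the whole route from HMG-CoA to cholesterol the changes were small and of both signs. Of 21 sterol synthesis genes listed, 18 were measured by a probe set of their own and the other 3 were not analysed here. Of the 18, 2 were higher, 1 was lower and 15 did not pass, which is 16.7% called beside 6.16% of all genes. With dim genes removed 3 of the 18 passed, beside 1428 of 11357 genes. Their median log2 change was -0.032, and 6 were above and 12 below 0.

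Besides Dhcr7, Ebp and Hsd17b7 passed, in opposite directions. Ebp, the isomerase that shifts the ring double bond, read 9.65, 9.68 and 9.67 in lox/lox cells, against 9.29, 9.44 and 9.36 in wt/wt cells. Its log2 change was 0.30 (1.23-fold, SE 0.08, adjusted p = 0.0428 in limma), with every lox/lox array above every wt/wt array. Hsd17b7, the ketoreductase among the enzymes that strip methyl groups from the sterol ring, read 6.51, 6.35 and 6.58 in lox/lox cells, against 6.77, 6.79 and 6.90 in wt/wt cells. It was 1.26-fold lower (log2 change -0.34, SE 0.09, adjusted p = 0.0438 in limma). Neither call was steady: leaving out any 1 array ended that of Ebp (highest adjusted p 0.147, when lox/lox replicate 2 was missing), and for Hsd17b7 5 of 6 such fits did so (highest 0.179, again when lox/lox replicate 2 was missing), all but the one lacking lox/lox replicate 3 (0.0471).

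The remaining steps gave no call. In the mevalonate section Pmvk, which makes mevalonate diphosphate, had a log2 change of -0.26 (adjusted p = 0.0898 in limma), while Mvk and Mvd, the kinase before it and the decarboxylase after it, had -0.066 and -0.0025. Fdps and Fdft1, which build farnesyl diphosphate and squalene, had -0.094 and 0.014. Around Sqle, the cyclase Lss had 0.20 (adjusted p = 0.329 in limma) and the demethylase Cyp51, the first after lanosterol, -0.041. Among the other genes after lanosterol, Tm7sf2, Lbr, Nsdhl and Sc5d had 0.036, -0.023, -0.016 and -0.11. Msmo1, the oxidase of the same demethylation as Hsd17b7, had -0.28 (adjusted p = 0.167 in limma). These genes were named after their values were seen.

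**Figure D3:**
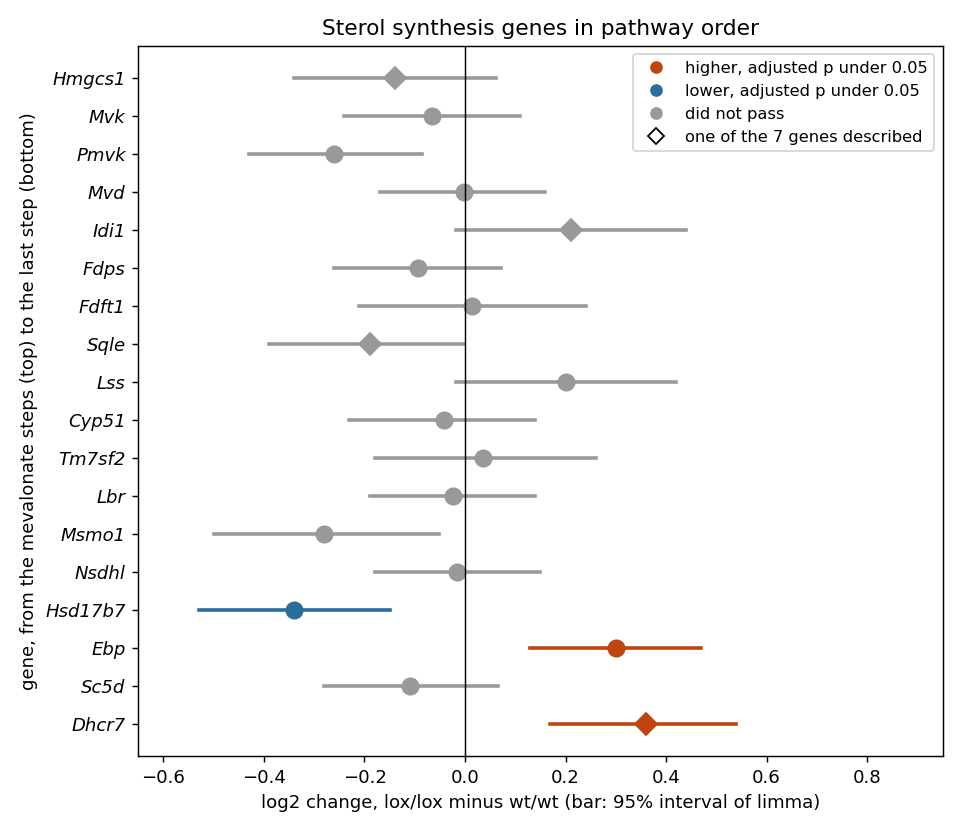
Log2 change, lox/lox minus wt/wt, of the 18 measured sterol synthesis genes in the order of the pathway, with 95% intervals from limma (orange higher, blue lower, grey did not pass; diamonds mark genes among the 7). Hsd17b7 at -0.34, Ebp at 0.30 and Dhcr7 at 0.36 passed the test, and most other intervals span 0.

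Of 18 genes listed for the control of SREBP 16 were measured, and 0 passed in limma, where 6.16% of all genes did, with 1 at an unadjusted p under 0.05 and a median log2 change of -0.02. Scap, the escort, had 7.60, 7.43 and 7.59 in lox/lox cells, against 7.52, 7.52 and 7.46 in wt/wt cells, a log2 change of 0.041 (interval -0.13 to 0.22). Srebf1, the gene of SREBP-1, had 8.49, 8.34 and 8.38 in lox/lox cells, against 8.43, 8.42 and 8.43 in wt/wt cells. Its log2 change of -0.023 (adjusted p = 0.928 in limma) changed sign under quantile normalization, cyclic loess and without lox/lox replicate 2. Insig2, the second Insig gene, had a log2 change of -0.12 (adjusted p = 0.624 in limma). The ends of the list were Rnf145, a ubiquitin ligase of the endoplasmic reticulum, at 0.21 (adjusted p = 0.149 in limma), and Trib1, a pseudokinase gene, at -0.21 (adjusted p = 0.343).

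Of 21 genes of sterol uptake and transport 16 were measured, and 1 rose and 1 fell, 12.5% of those measured beside 6.16% of all genes (median log2 change 0.033). The gene that fell was Stard4. The gene that rose was Npc1, which exports cholesterol from lysosomes, at 7.81, 7.91 and 8.00 in lox/lox cells, against 7.45, 7.57 and 7.50 in wt/wt cells. Its log2 change was 0.40 (1.32-fold, SE 0.08, adjusted p = 0.0166 in limma), and it no longer passed when wt/wt replicate 3 (0.0693), lox/lox replicate 2 (0.0709) or lox/lox replicate 3 (0.0513) was left out. Its partner in that export, Npc2, named after its value was seen, stood at 0.26 on the log2 scale of change, short of the threshold (adjusted p = 0.0642 in limma). Stard5, a relative of Stard4, had the lowest value of the list at -0.37 and did not pass either (adjusted p = 0.0701 in limma).

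Larger changes lay just outside the sterol route, among genes of acetyl-CoA and fatty acid supply that SREBP-1 can drive. All 18 listed were measured. Of these 5 fell, 1 rose and 12 did not pass, 33.3% called beside 6.16% of all genes, with a median log2 change of -0.18 beside -0.0079. The 6 called genes each passed in all 6 fits without 1 array.

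Acly, which makes cytosolic acetyl-CoA from citrate for both sterols and fatty acids, read 10.16, 10.18 and 10.26 in lox/lox cells, against 10.59, 10.60 and 10.66 in wt/wt cells (log2 change -0.42, SE 0.07, adjusted p = 0.00793 in limma). Acss2, which makes acetyl-CoA from acetate, had 6.23, 6.36 and 6.36 in lox/lox cells, against 6.76, 6.90 and 6.77 in wt/wt cells (log2 change -0.49, adjusted p = 0.00528 in limma). The RNA of both genes was thus lower with no overlap of arrays, while acetyl-CoA itself was not measured. Me1, the malic enzyme that yields NADPH, fell most, at 7.97, 8.00 and 8.08 in lox/lox cells, against 8.90, 9.14 and 8.97 in wt/wt cells, a 1.99-fold lower level (adjusted p = 0.000166 in limma). Acacb, an acetyl-CoA carboxylase, and Elovl5, an elongase of polyunsaturated fatty acids, had log2 changes of -0.64 and -0.50 (adjusted p = 0.00635 and 0.00781 in limma). Mid1ip1, which stimulates acetyl-CoA carboxylase, rose, with a log2 change of 0.57 (adjusted p = 0.00448 in limma). Fasn and Acaca, the core enzymes of fatty acid synthesis and named after their values were seen, had -0.15 and -0.13 and did not pass (adjusted p = 0.416 and 0.487).

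**Figure D4:**
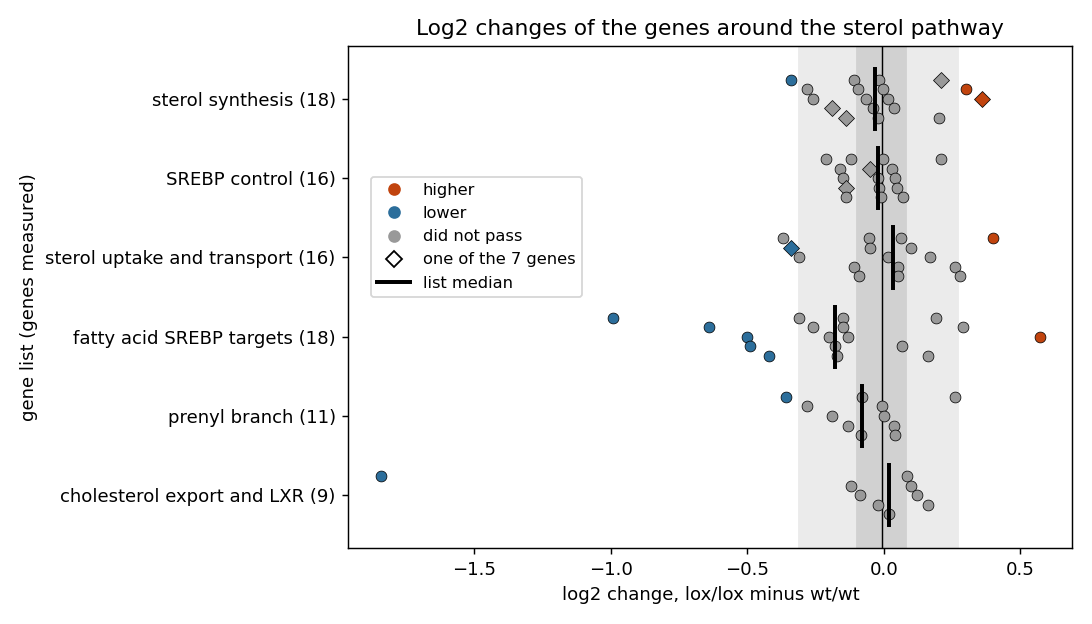
Log2 change, lox/lox minus wt/wt, of each measured gene in 6 lists (rows, with the number measured), orange where higher, blue where lower and grey where the test was not passed; diamonds are the 7 genes and thick bars list medians. The dark band holds the genes between the percentiles 25 and 75 of all genes, from -0.10 to 0.081, and the light band those between the percentiles 5 and 95, from -0.31 to 0.27. The fatty acid row reaches from -0.99 to 0.57, the sterol synthesis row from -0.34 to 0.36.

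In the side branch to prenyl groups, dolichol and ubiquinone, 11 of 12 genes were measured and 1 passed, 9.09% of them and near the 6.16% of all genes (median log2 change -0.081). Dhdds, a subunit of the enzyme that starts dolichol synthesis, was 1.28-fold lower (7.29, 7.30 and 7.44 in lox/lox cells, against 7.59, 7.73 and 7.79 in wt/wt cells, adjusted p = 0.0343 in limma). Leaving out 1 array ended this call in 4 of 6 fits, with the highest adjusted p, 0.145, when wt/wt replicate 3 was missing. Coq2, a prenyltransferase of ubiquinone synthesis, was the highest of the list at a log2 change of 0.26 (adjusted p = 0.231 in limma).

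On the export side 9 of 10 genes were measured and 1 passed, 11.1% beside 6.16% of all genes (median log2 change 0.018). This was Abca1, the cholesterol exporter, at 5.66, 5.65 and 5.72 in lox/lox cells, against 7.24, 7.70 and 7.62 in wt/wt cells, a log2 change of -1.84 (SE 0.11, adjusted p = 2.29e-05 in limma) that exceeded those of all 7 sterol genes in size. Apoe, the gene of an apolipoprotein that accepts exported cholesterol, had the highest value of that list, 0.16 (adjusted p = 0.342 in limma).

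Each of the 7 genes had other genes that followed it closely over the 6 arrays, given here as a description over 6 points that share genotype and array effects. Among 10932 named genes brighter than the array median, the closest to Dhcr7 by Pearson correlation was Zfp846 (r = 0.999), which was also higher in lox/lox cells (log2 change 0.53, adjusted p = 0.0108 in limma). The closest to Stard4 was Rab8a (r = 0.996), to Sqle Hdac2 (r = 0.998) and to Srebf2 Pafah1b1 (r = 0.997). The closest to Hmgcs1, Insig1 and Idi1 were Kif5b (r = 0.994), Rexo2 (r = 0.992) and Tatdn1 (r = 0.994). None of the 7 had another of the 7 as its closest gene. With 10932 genes compared over 6 arrays, this cannot show whether the 7 moved together.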

How the data were processed

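The deposited table holds log2 values, produced by the authors through RMA in affy, per the submitters' processing notes (versions, build and options not given in the sources used here). RMA assumes alike distributions between arrays, so a global shift of RNA per cell is not visible, and background makes small changes of weak genes look smaller. Names came from the platform annotation, for probe sets to which it gives 1 symbol (21789 of 35556). Where a gene had several, the one brightest on average stood for it. The lox/lox minus wt/wt difference was fitted per gene in limma 3.58.1 (R 4.3.3, lmFit and eBayes, residual df 4 and prior df 6.14). A call needed an adjusted p (Benjamini-Hochberg, all 19938 genes) under 0.05. The fitting code was tested on simulated data. Precision is limited by 3 arrays per genotype, and p-values measure the spread between these cultures.

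The members and lists were chosen with earlier results of these data known, so they are described by counts and medians. The rule for names took the members, Rad21, Myc, Abca1, Insig2, Scap, Srebf1, every called list gene, the highest and lowest of each list, and the closest gene to each member. Other genes were named after their values were seen. Alternatives were 3 normalizations, a filter on dim genes, all probe sets, other variance models, each array left out, stricter thresholds and replicate number as a block.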

Additional observations from a re-analysis of the deposited data

How the results depend on the processing

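The log2 changes of the 7 genes kept their direction in all 15 alternatives fitted with the same threshold, but the calls did not. Beside 2 genes called with all arrays there were 0 after median centring, with all probe sets, with a replicate block, at an adjusted p under 0.01, at 1.5-fold and without both arrays that stood apart, and 0 to 1 without 1 array. The count of sterol synthesis calls, 3 with all arrays, was 1 after median centring, 0 to 1 without 1 array and 0 in the other settings just named. The count of transport calls, 2 with all arrays, was 1 after median centring, with the block or without both arrays (where neither Npc1 nor Stard4 passed), 4 with dim genes removed, trend and robust variance or array weights, 0 with all probe sets or either stricter threshold, and 0 to 3 without 1 array. Calls of fatty acid genes stayed at 6 in each fit without 1 array and were 2 at 1.5-fold. SREBP control genes had 0 calls in every setting in limma, with 1 at an unadjusted p under 0.05 with all arrays. Srebf1 turned to 0.0059 with quantile normalization, 0.0031 with cyclic loess and ranged from -0.068 to 0.0099 without 1 array. Calls over all genes, 1228 with all arrays, numbered 808 with all probe sets, 553 at an adjusted p under 0.01, 451 at 1.5-fold, 697 without both arrays and 626 to 1132 without 1 array. With all probe sets more features were tested, but the variance model was also refitted. Unadjusted p in limma rose there from 0.00151 to 0.00336 for Dhcr7 and from 0.00271 to 0.00594 for Stard4. The parts of these in the lost calls were not told apart. Stricter thresholds lower counts by construction. Fits without 1 array rest on fewer arrays, and calls over all genes fell in all 6 of them. How far this accounts for the calls lost there was not tested, nor was the cause of the other changes. Same-numbered replicates of the genotypes did not deviate together (correlations 0.10, -0.23 and -0.10, and 1 of 3 lox/lox arrays closest to its own number), so the numbers are not taken as pairs. With the block Dhcr7 had an adjusted p of 0.0642 and Stard4 one of 0.0613.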
